A study of Mus musculus with 46 samples.

Results

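Of 46 single cells picked from the mouse cochlea, 18 were compared. They were chosen by measured values: Ibsp below 1000 CPM (reads per 1000000 reads), C1qb below 500 CPM and Car3 at 1000 CPM or more. Ibsp marks bone cells, C1qb marks macrophages, and Car3 encodes a carbonic anhydrase abundant in many fibrocytes. Otos, which encodes the secreted inner ear protein otospiralin, then divided them into 9 Otos-high cells (1000 CPM or more) and 9 Otos-low Car3-high cells (below 100 CPM). No cell that met the other limits lay between 100 and 1000 CPM of Otos. The 28 cells left out had Car3 below 1000 CPM (12 cells), Ibsp at 1000 CPM or more (12 cells) or C1qb at 500 CPM or more (4 cells).

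All cells came from C57BL/6 mice at postnatal day 10 that were heterozygous for Dio2creERt2 and carried the Ai6 reporter. Dio2 encodes type 2 deiodinase, which makes active thyroid hormone. The Cre recombinase is driven from the Dio2 locus and switches on a fluorescent protein that descendants of a marked cell keep, so a picked cell need not express Dio2 at the time of picking. Cochleae were dissociated with papain and fluorescent cells were drawn singly into a pipette, so the numbers of cells describe the picking and not the tissue. No label names the animal, litter or cochlear turn of a cell, and both classes share genotype, strain, age and preparation. The 46 cells therefore count as 1 sample. Every difference below is a description of these cells with its standard deviation (SD) over cells, has no replicate check and carries no test. Because Otos divided the cells and all genes were compared across that division, no difference below is independent of the rule.

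Cochlear fibrocytes form the connective tissue of the spiral ligament and spiral limbus. Many of them are joined by gap junctions into a network that takes up potassium ions leaving the sensory epithelium and passes them towards the stria vascularis. They also lay down the collagen and proteoglycan matrix of the lateral wall, and textbook subtypes are told apart by position and by proteins such as S100, aquaporin 1 and carbonic anhydrases. Otospiralin, cochlin (Coch) and otoraplin (Otor) are secreted proteins for which these cells are known.

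Otos ranged from 1213 CPM through a median of 22478 CPM to 46242 CPM in the Otos-high cells, and from 16 through 31.2 to 56.4 CPM in the Otos-low cells. Just inside the limit lay cell 31 at 1213 CPM, and just outside it lay cell 30 at 56.4 CPM and cell 33 at 55.9 CPM. The values of the Otos-low cells fell within the range of the cells left out, 17.3 to 84.3 CPM with low Car3, 12 to 108 CPM with high Ibsp and 23.6 to 112 CPM with high C1qb. A low Otos value of this size was therefore listed in every cell, macrophage-marked cells included. At the Car3 limit, cell 33 was the lowest inside at 2890 CPM and cell 35 the highest outside among the cells without high Ibsp or C1qb, at 949.5 CPM.

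**Figure D1:**
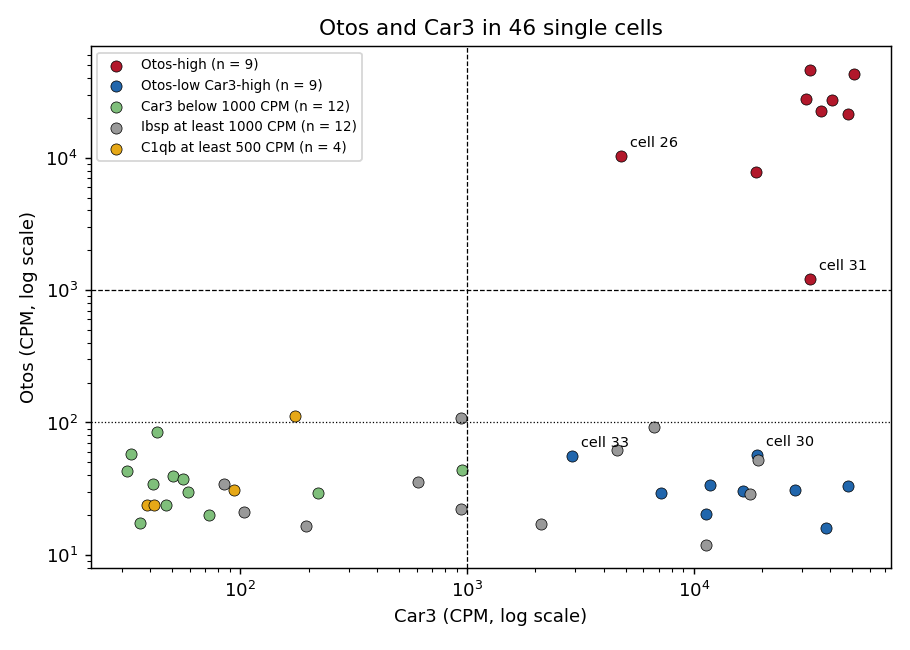
Otos against Car3 in CPM on log axes, 1 point per cell, coloured by class, with dashed lines at 1000 CPM and a dotted line at 100 CPM. The 9 Otos-high cells lie at 1213 CPM of Otos or more, and no cell lies between 112 and 1213 CPM.

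The other defining fibrocyte markers were present in both classes. Car3 had a lowest, median and highest value of 4779, 32655 and 50989 CPM in the Otos-high cells and of 2890, 16439 and 47803 CPM in the Otos-low cells. Coch, the matrix protein gene altered in a form of inherited deafness, had 10138, 14760 and 68394 CPM against 6785, 13700 and 97304 CPM, a difference of 0.07 on the log2(CPM + 1) scale with SDs of 0.99 and 1.23. Otor had 1328, 15338 and 31115 CPM against 17.1, 3716 and 12399 CPM, a difference of 2.72. The ranges of all 3 genes overlapped between the classes. Pou3f4, the otic mesenchyme transcription factor, was at 152 to 1116 CPM in Otos-high and 249 to 1111 CPM in Otos-low cells. These markers do not set the compared cells apart from the rest, because Coch was also at 510 to 34506 CPM and Pou3f4 at 102 to 772 CPM in the 12 cells with high Ibsp, and Car3 was part of the rule. Otor was at 10.7 to 103 CPM in those 12 cells, and cell 33, at 17.1 CPM, lay in that range. Dio2 itself had 0, 25.5 and 599.8 CPM in the Otos-high cells and 0.816, 30.2 and 184 CPM in the Otos-low cells, reaching 10 CPM in 5 and 6 cells.

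Class and cell number ran together. The Otos-high cells all carry title numbers from 23 to 32, and the Otos-low cells carry 13 to 19 plus 30 and 33. The numbering ran with the other classes too. Cells 1 to 12 had high Ibsp, cells 43 to 46 high C1qb, and cells 20 to 22 and 34 to 42 low Car3. The title numbers of the whole series were thus grouped by measured class. What set this order is not given, so Otos class and anything that followed the numbering cannot be told apart for cells 13 to 19. Reads in listed genes were 3522422 to 7530795 per Otos-high cell and 3978103 to 6832052 per Otos-low cell, and genes at 1 CPM or more were 4190 to 6800 and 3351 to 5684. Mitochondrial genes held 0.664% to 2.98% and 0.678% to 1.85% of the total. These ranges overlapped. No 2 cells had identical values.

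Across the 10464 genes that reached 1 CPM in at least 20% of either class, 361 were higher in Otos-high cells (3.45% of those compared) and 241 were higher in Otos-low cells (2.3%) by the size rule. That rule asks for a difference of at least 2 on the log2(CPM + 1) scale and at least 1 CPM in 75% of the higher class. Without cell 18 the 241 became 378, and without any 1 of the other Otos-low cells it became 292 to 352. Without any 1 of the Otos-high cells the 361 became 381 to 509. A share of 75% can be met exactly by 8 cells but not by 9, so leaving out a cell of the higher class loosens the rule. The median difference over all compared genes was 0.13. Otos was the only gene under the size rule whose lowest Otos-high cell lay above the highest Otos-low cell (1 gene, 0.00956%), and no gene was so separated in the other direction (0 genes, 0.0%). Leaving out each cell in turn gave 1 to 5 and 0 to 3 such genes, the most without cell 26 and without cell 18. Every other gene named below therefore overlapped between the classes unless stated. Of the 14 genes with the largest differences in each direction, the 13 besides Otos on the Otos-high side are described first.

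The gap junction genes Gjb6 and Gjb2 were high in the Otos-high cells. They encode connexin 30 and connexin 26, the main channel proteins of the cochlear gap junction network, and loss of either is a known cause of deafness. The genes are neighbours on chromosome 14 of GRCm38, Gjb2 at 57098602 to 57104702 and Gjb6 at 57123301 to 57133611, with 18598 bases between them. Their promoter sequences are shown with that of Otos because cells 30 and 33 were the highest Otos-low cells for both connexin genes. Each line gives the 250 bases before a start that RefSeq (GRCm38.p6) lists for the gene, read on the minus strand from 5′ to 3′, at chr1:92648842-92649091 for Otos, chr14:57133612-57133861 for Gjb6 and chr14:57104703-57104952 for Gjb2. The Otos window reaches into the annotated span of Otos, 92644218 to 92648899 on chromosome 1, while the Gjb6 and Gjb2 windows end where the annotated spans begin. Capitals mark the nuclear receptor motif AGGTCA or its reverse complement.
Otos: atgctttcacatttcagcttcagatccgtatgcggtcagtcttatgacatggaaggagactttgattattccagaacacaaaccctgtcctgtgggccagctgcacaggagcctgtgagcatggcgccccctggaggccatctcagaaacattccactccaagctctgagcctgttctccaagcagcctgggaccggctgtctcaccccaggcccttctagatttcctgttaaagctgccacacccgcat
Gjb6: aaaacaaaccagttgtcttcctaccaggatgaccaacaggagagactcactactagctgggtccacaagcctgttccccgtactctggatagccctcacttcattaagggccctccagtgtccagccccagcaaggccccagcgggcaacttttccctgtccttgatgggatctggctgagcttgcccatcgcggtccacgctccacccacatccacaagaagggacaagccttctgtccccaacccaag
Gjb2: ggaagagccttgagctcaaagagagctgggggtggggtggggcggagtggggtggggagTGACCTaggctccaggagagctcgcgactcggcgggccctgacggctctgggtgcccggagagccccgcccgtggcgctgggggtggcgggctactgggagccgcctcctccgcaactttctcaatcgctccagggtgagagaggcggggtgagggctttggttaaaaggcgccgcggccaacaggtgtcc

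A script searched both strands of these windows for the nuclear receptor motif AGGTCA, the TATA box TATAAA and the POU octamer ATGCAAAT. Over 32851 mouse promoter windows of the same length, 14% held the nuclear receptor motif, 12.4% the TATA box and 1.60% the octamer. Of these 3 genes, the Gjb2 window held the nuclear receptor motif, on the opposite strand, and the Otos and Gjb6 windows held none of the letters searched. Promoter windows were found for 13 of the 14 named Otos-high genes, 17 windows in all because some genes have several starts, and 4 windows held the nuclear receptor motif, 2 a TATA box and 0 an octamer. On the Otos-low side there were 11 windows for 8 of 14 genes, with 6, 2 and 1. The 2 Mfap2 windows on that side, like others of 1 gene, are not separate observations. These matches describe letters and not binding.

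Gjb6 had a lowest, median and highest value of 203, 2060.1 and 4098 CPM in the Otos-high cells. In the Otos-low cells it was at 0.854 to 3.43 CPM in cells 13 to 19, at 989 CPM in cell 30 and at 1440 CPM in cell 33. The difference was 7.13 with SDs of 1.48 and 3.87 over cells. Gjb2 had 142, 2390 and 5943 CPM in the Otos-high cells. Among Otos-low cells Gjb2 was at 169 CPM in cell 13, 118 CPM in cell 14, 929 CPM in cell 30 and 1032 CPM in cell 33, and between 1.37 and 2.24 CPM in the other 5. Its difference was 5.92 with SDs of 1.85 and 3.88. Against cells 13 to 19 alone the differences were 9.07 for Gjb6 and 7.45 for Gjb2, and against cells 30 and 33 they were 0.33 and 0.57. Cells 30 and 33 thus lay inside the Otos-high range of both connexin genes. Neither gene was confined to the compared cells, because Gjb6 reached 10 CPM in 6 of 12 cells with low Car3, up to 3208 CPM, and Gjb2 in 5 of 12, up to 4339 CPM.

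Hhatl had the largest difference after Otos. It encodes a relative of the enzyme that attaches palmitate to hedgehog proteins. Its Otos-high values were 609, 2426 and 4600 CPM. Cells 13 to 19 lay between 0.860 and 31.4 CPM, while cell 30 had 752 CPM and cell 33 had 199 CPM, and the difference was 7.65 with SDs of 0.97 and 3.19. The highest Otos-low cell, number 30, lay above the lowest Otos-high cell, number 28. Hhatl did not reach 10 CPM in any of the 12 cells with low Car3, 12 with high Ibsp and 4 with high C1qb, where its highest value was 5.58 CPM.

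S100b encodes a calcium-binding protein that is a classical antigen of some fibrocyte subtypes and also of glia. It had 96.3, 9379 and 19305 CPM in the Otos-high cells. In the Otos-low cells it had 6.94 to 107 CPM in cells 13 to 19, 1571 CPM in cell 30 and 266 CPM in cell 33. The difference was 6.47 with SDs of 2.64 and 2.73. The other S100 gene of the antigen list, S100a1, was at 49.8, 171 and 327 CPM against 0.134, 67.5 and 199 CPM, a difference of 2.16.

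Ucp2, a mitochondrial inner membrane carrier, had 80.1, 378 and 1484 CPM in the Otos-high cells. It stayed at or below 0.970 CPM in cells 13 to 19 and was at 193 CPM in cell 30 and 246 CPM in cell 33, a difference of 6.35. Lrrc8d, a subunit of volume-regulated anion channels, had 27.4, 414 and 1607 CPM, against at most 1.36 CPM in cells 13 to 19, 0.268 CPM in cell 30 and 267 CPM in cell 33, a difference of 7.16. Both genes were also above 10 CPM in all 4 macrophage-marked cells, with Ucp2 at 974 to 1956 CPM and Lrrc8d at 15.8 to 202 CPM. Of the 12 cells with low Car3, Lrrc8d reached 10 CPM in 5, up to 691 CPM, and Ucp2 in 3, up to 349 CPM.

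Msx3 and Cd38 stood apart from the genes above in that cells 30 and 33 lacked them. Msx3, a homeobox transcription factor gene, had 0.262, 284 and 670.2 CPM in the Otos-high cells and at most 0.320 CPM in any Otos-low cell. Cd38, which encodes an enzyme that consumes NAD, had 0.367, 330.4 and 655 CPM against at most 0.686 CPM. Neither separated the classes, because cells 26 and 31 were under 3 CPM for Msx3, at 0.262 and 2.75 CPM, and cells 25 and 31 were at 0.463 and 0.367 CPM for Cd38. Msx3 was at or below 0.606 CPM in all 28 cells left out, whereas Cd38 reached 10 CPM in 3 of 4 macrophage-marked cells. Rnd2, a small GTPase gene, had 38.3, 339 and 954 CPM against 0, 0.320 and 109 CPM, and in cells 30 and 33 it was at 0.268 and 0 CPM.

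The remaining genes of this side were Ucma, Aif1l, Ahcyl2 and Megf9. Ucma, a secreted cartilage protein gene, had 29.6, 2979 and 5475 CPM against 0.683, 3.26 and 2518 CPM, with the highest Otos-low value in cell 18. Its difference was 6.08. Differences were 6.84 for Aif1l, an actin-binding protein gene, 5.96 for Ahcyl2 and 5.91 for Megf9.

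**Figure D2:**
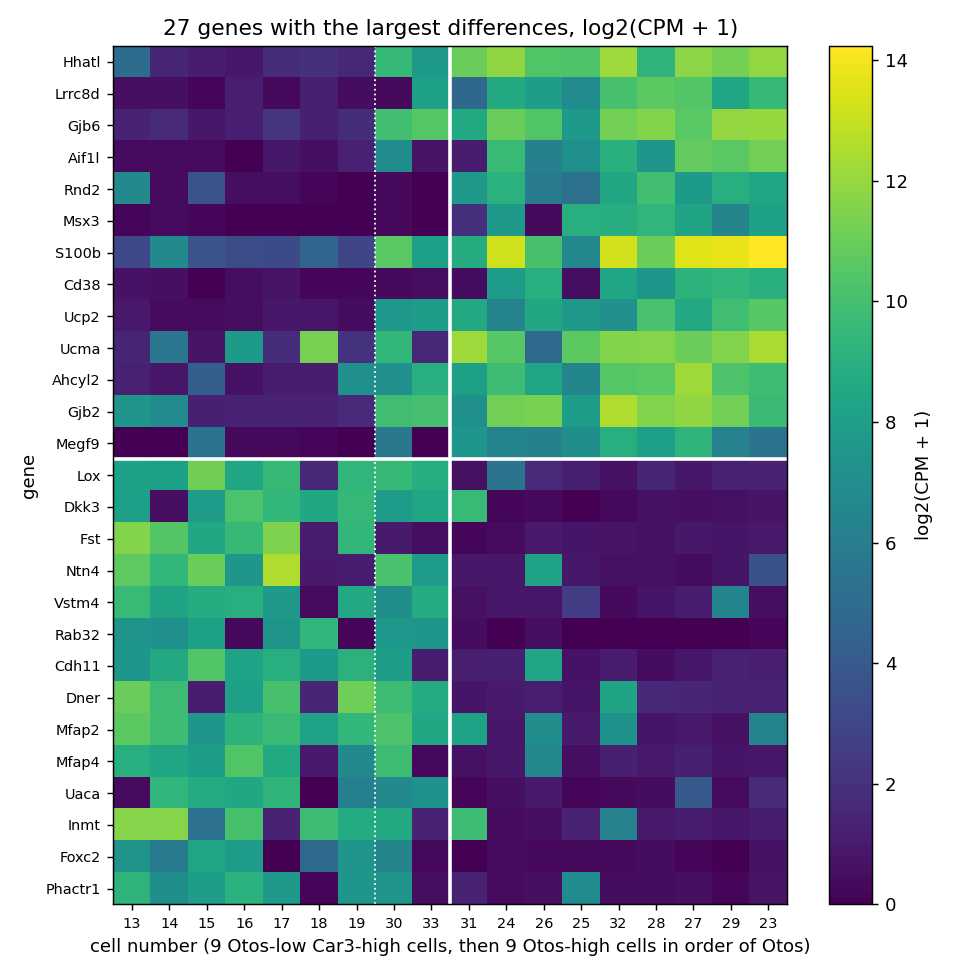
Colour shows log2(CPM + 1) of the 27 named genes besides Otos (rows, Otos-high side above the solid line) in 18 cells (columns, by cell number). Cells 30 and 33, right of the dotted line, carry many genes of the upper block and of the lower block.

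On the Otos-low side Lox had the largest difference. Lox encodes lysyl oxidase, which crosslinks collagen and elastin. It had 2.05, 463 and 2279 CPM in the Otos-low cells against 0.542, 1.44 and 42.9 CPM in the Otos-high cells, a difference of -6.66 with SDs of 1.48 in Otos-high and 2.68 in Otos-low cells. Only cell 18 of the Otos-low cells lay in the Otos-high range. Mfap2 and Mfap4 encode proteins of elastic microfibrils. Mfap2 was the named gene of this side that was above 100 CPM in all 9 Otos-low cells, at 175, 691 and 1604 CPM, against 0.542, 1.08 and 303 CPM, a difference of -5.53. In Otos-high cells it was at 303 CPM in cell 31, 160.2 CPM in cell 32, 127 CPM in cell 26 and 82.5 CPM in cell 23, and at or below 1.08 CPM in the other 5. Mfap4 had a difference of -5.40.

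Genes for secreted signalling proteins and their antagonists were among the largest differences. Fst encodes follistatin, which binds activin and some BMPs. It was at or below 1.05 CPM in all 9 Otos-high cells. In the Otos-low cells it was at 369 to 3045 CPM in 6 of cells 13 to 19, at 1.19 CPM in cell 18, 1.07 CPM in cell 30 and 0.462 CPM in cell 33. Its difference was -6.34 in all, -8.14 against cells 13 to 19 and -0.07 against cells 30 and 33. Dkk3, a secreted relative of Wnt antagonists, had 0.480, 332 and 1188 CPM against 0, 0.496 and 762 CPM, a difference of -6.37, and in the Otos-high cells it exceeded 1 CPM in cell 31 alone. Ntn4, a netrin of basement membranes, had 1.02, 694 and 6013 CPM against 0.372, 0.869 and 289 CPM, a difference of -6.04.

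Among cell surface and intracellular proteins, Cdh11, the cadherin of mesenchymal cells, had 1.16, 307 and 1303 CPM in the Otos-low cells. In the Otos-high cells it was at 325 CPM in cell 26 and at most 1.44 CPM in the other 8, and the difference was -5.91. Foxc2, a mesenchymal forkhead transcription factor gene, was at or below 0.559 CPM in all Otos-high cells and at 0, 89.0 and 325 CPM in Otos-low cells, a difference of -5.07. Rab32, a small GTPase gene of organelle traffic, was at or below 0.524 CPM in all Otos-high cells and at 0.204, 164 and 649 CPM in Otos-low cells. Dner, a transmembrane protein gene known from neurons, had 1.20, 878 and 2158 CPM against 0.734, 1.54 and 319 CPM. Vstm4, Uaca, Inmt and Phactr1 had differences of -6.01, -5.29, -5.10 and -4.99. Genes of this side also occurred outside the compared cells: Cdh11 was above 10 CPM in 12 of 12 cells with high Ibsp and 10 of 12 with low Car3, and Lox in 10 of 12 of each.

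**Figure D3:**
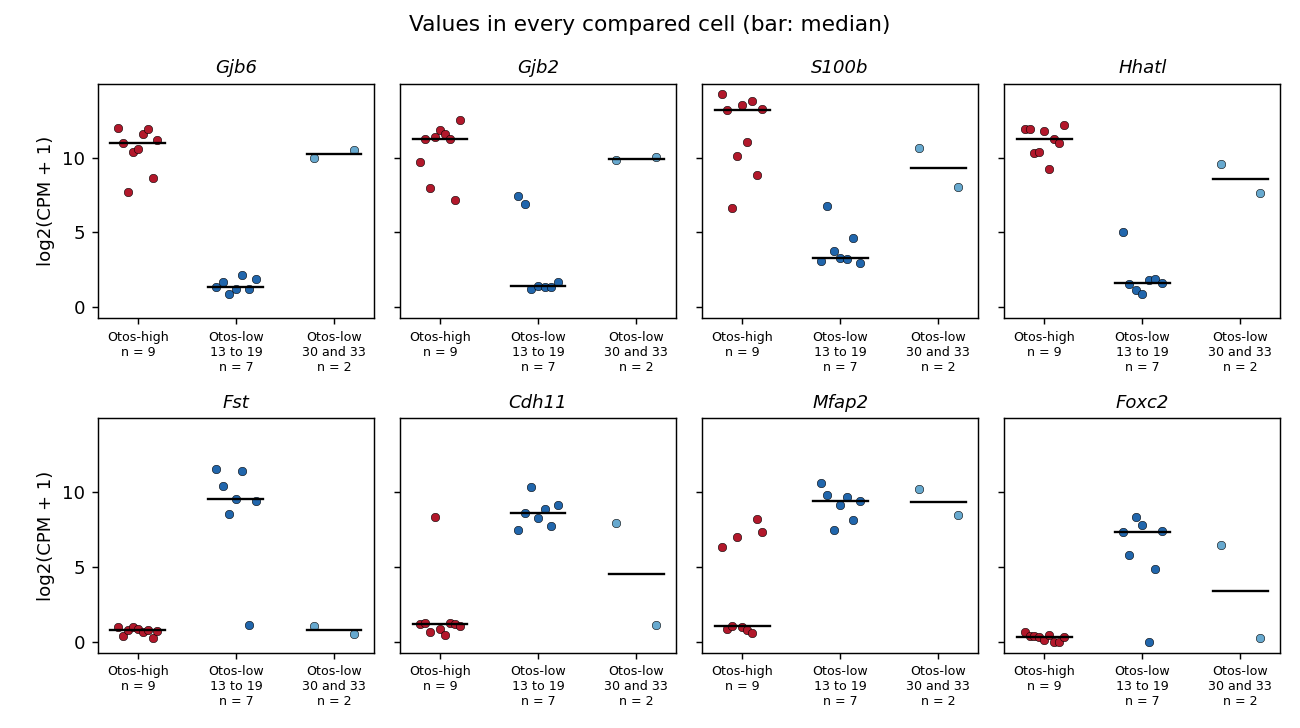
Values of 8 genes on the log2(CPM + 1) scale, 1 point per cell, for Otos-high cells, Otos-low cells 13 to 19, and Otos-low cells 30 and 33 (bar: median). Gjb6 and Gjb2 of cells 30 and 33 lie among the Otos-high cells, and their Fst lies with the Otos-high cells as well.

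The Otos-low class was not uniform. With 10 CPM as the mark of presence, Otos-high cells carried 10 to 13 of the 13 Otos-high genes and 0 to 4 of the 14 Otos-low genes. Cells 13 to 19 carried 0 to 4 and 6 to 13, with cell 18 at 6. Cell 30 carried 9 and 13, and cell 33 carried 7 and 8. Because these cells helped to choose the genes, the genes were also chosen from cells 13 to 19 against the Otos-high cells alone, which kept 11 of 14 in each direction. Cell 30 then carried 10 of 13 and 12 of 14, and cell 33 carried 9 and 5, while cells 13 to 19 carried 0 to 4 and 5 to 14. The counts of cells 13 to 19 and of the Otos-high cells follow from that choice. The 12 cells with low Car3, which had no part in it, carried 3 to 7 and 1 to 12. Among them cell 36 carried 7 and 5 and cell 37 carried 5 and 10, so genes of both sides also occurred together outside the compared cells. Cells 30 and 33 had 5684 and 4819 genes at 1 CPM or more, within the range of the other compared cells though the most of the Otos-low class in cell 30, and whether either holds RNA of more than 1 cell was not tested.

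**Figure D4:**
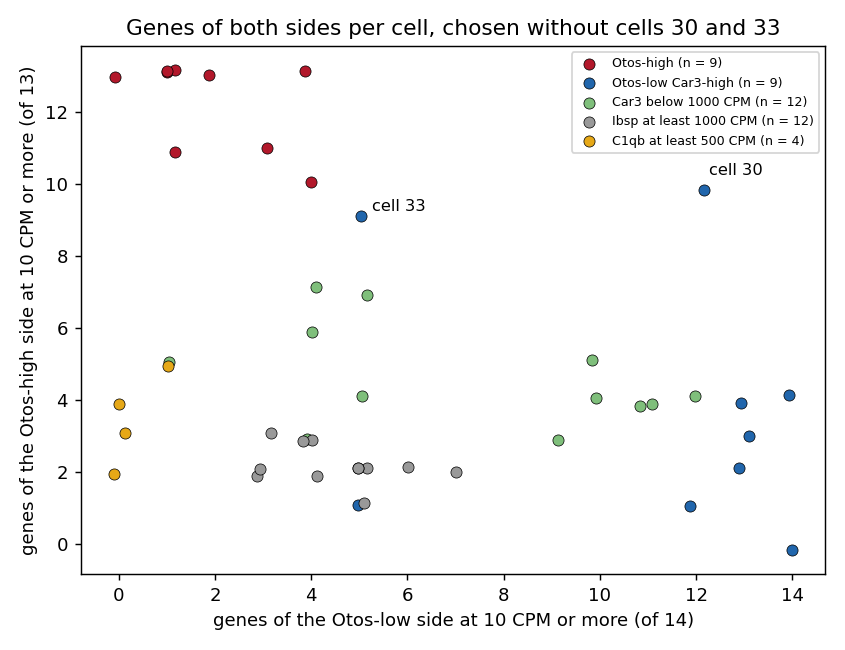
Number of named genes at 10 CPM or more in each cell, Otos-low side on the horizontal axis (of 14) and Otos-high side on the vertical axis (of 13), with the genes chosen without cells 30 and 33 and points shifted slightly so that they do not hide each other. Cell 30 lies at 12 and 10, and cell 33 at 5 and 9.

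Without cells 30 and 33, 10106 genes were compared, of which 442 were higher in Otos-high cells (4.37%) and 236 were higher in cells 13 to 19 (2.34%), with a median difference of 0.24 over all. Of the 361 and 241 genes of the full comparison, 323 and 178 stayed. In this narrower comparison 9 genes had every Otos-high cell above every one of cells 13 to 19 (0.0891%): Otos, Hhatl, Gjb6, Lrrc8d, Ucp2, Slc44a2, Hif1a and the less described Gm10871 and 4930528J11Rik. In the other direction there were 2 such genes (0.0198%), Smoc1 and Fst. The separation of Fst was narrow, at 1.19 CPM or more in cells 13 to 19 against at most 1.05 CPM in Otos-high cells. Slc44a2, a choline transporter-like protein gene, had 219.5, 451 and 2547 CPM in Otos-high cells against at most 219.0 CPM in cells 13 to 19, a separation of less than 1 CPM. That of 4930528J11Rik was near the floor, with a lowest Otos-high value of 0.154 CPM against 0 CPM in cells 13 to 19. It reached 10 CPM in 6 of 9 Otos-high cells. Hif1a, the oxygen-regulated transcription factor gene, had 373, 709 and 1347 CPM against 0.686, 144 and 360.2 CPM. Smoc1, a matricellular protein gene, had 268 to 1771 CPM in cells 13 to 19 against 0.463 to 170.3 CPM in Otos-high cells. Slc44a2, Hif1a and Smoc1, with Gm10871 and 4930528J11Rik are named because this count is small, and were chosen after their values were seen.

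With no limit on size, 6 genes had all 9 Otos-high cells above all 9 Otos-low cells (0.0573%) and none had the reverse (0.0%). Among them were Otos, Gapdh and the Gapdh-related or less described Gm10481, Gm12070 and Gm5177. Gapdh, the glycolytic enzyme often used as a control, had 138, 225 and 309 CPM against 58.6, 80.9 and 132 CPM, a difference of 1.38 with SDs of 0.36 and 0.42. Of the words of 25 letters in Gm12070 and Gm10481, 97.4% and 79.6% also occur in Gapdh transcripts, so how reads were split among these copies is uncertain and they are not separate observations. Of 8 widely used control genes, 3 were at least 1 higher in Otos-high cells and 0 were lower by that much. Their median difference was 0.33, and over all compared genes 24.6% were at least 1 higher and 19.8% at least 1 lower. Actb, Ppia and Rplp0 overlapped between the classes, with differences of -0.44, 0.39 and 0.09.

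Gene lists were described by members that differed by at least 1, beside the same over all compared genes, where 24.6% were at least 1 higher in Otos-high cells and 19.8% at least 1 lower. A list member named below need not pass the size rule. Of 15 collagens of fibrils and networks, 1 was higher and 10 were lower in Otos-high cells, with a median difference of -1.83. Col8a1, a network collagen gene, had 61.6, 457 and 2388 CPM in Otos-high cells and 403, 6077 and 10322.5 CPM in Otos-low cells, a difference of -2.95. Col4a2 of basement membranes had a difference of -3.75, Col14a1 of -3.01 and Col3a1 of -2.61. Col1a1 was at or below 5.91 CPM in all Otos-high cells, with a difference of -0.76 (0.19 against cells 30 and 33), while Col1a2 was at 88.4 to 7959 CPM and 2403 to 6419 CPM. The exception in direction was Col6a2, at 1.18.

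The small leucine-rich proteoglycans, which bind collagen fibrils, had 1 of 9 members higher and 5 lower, with a median of -1.71. Ogn had 2.53, 267 and 1835 CPM against 892, 2749 and 14302.5 CPM, a difference of -3.56, and Omd and Fmod had differences of -2.78 and -2.75. The exception was Epyc, at 1.35. Of 22 other matrix and matrix turnover genes, 3 were higher and 13 lower, with a median of -1.62. Beside Ntn4 these included Npnt, an integrin ligand gene, at -4.39, Smoc1 at -4.30 and Fbln5, an elastic fibre gene, at -3.44. Against cells 13 to 19 Fbln5 had a difference of -4.58 and against cells 30 and 33 of 0.56. Fbln5 did not pass the size rule, and reached 10 CPM in 4 of 9 Otos-low cells. Sparc, which encodes a collagen-binding glycoprotein, differed the other way, at 18806.5, 52366 and 66582.5 CPM against 6239, 15103.5 and 47514 CPM, a difference of 1.31.

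Cartilage genes went in both directions. Of 17 members, 6 were higher and 2 lower, with a median of 0.04. Col2a1 had a difference of -0.19, Col9a1 of -0.35, Col9a3 of 0.04 and Sox9, the cartilage transcription factor gene, of -0.46, and all 4 were above 10 CPM in every cell of both classes. Besides Ucma, Scrg1 had a difference of 3.31 but reached 10 CPM in 4 of 9 Otos-high cells and 0 of 9 Otos-low cells, and Chad had a difference of -2.85.

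**Figure D5:**
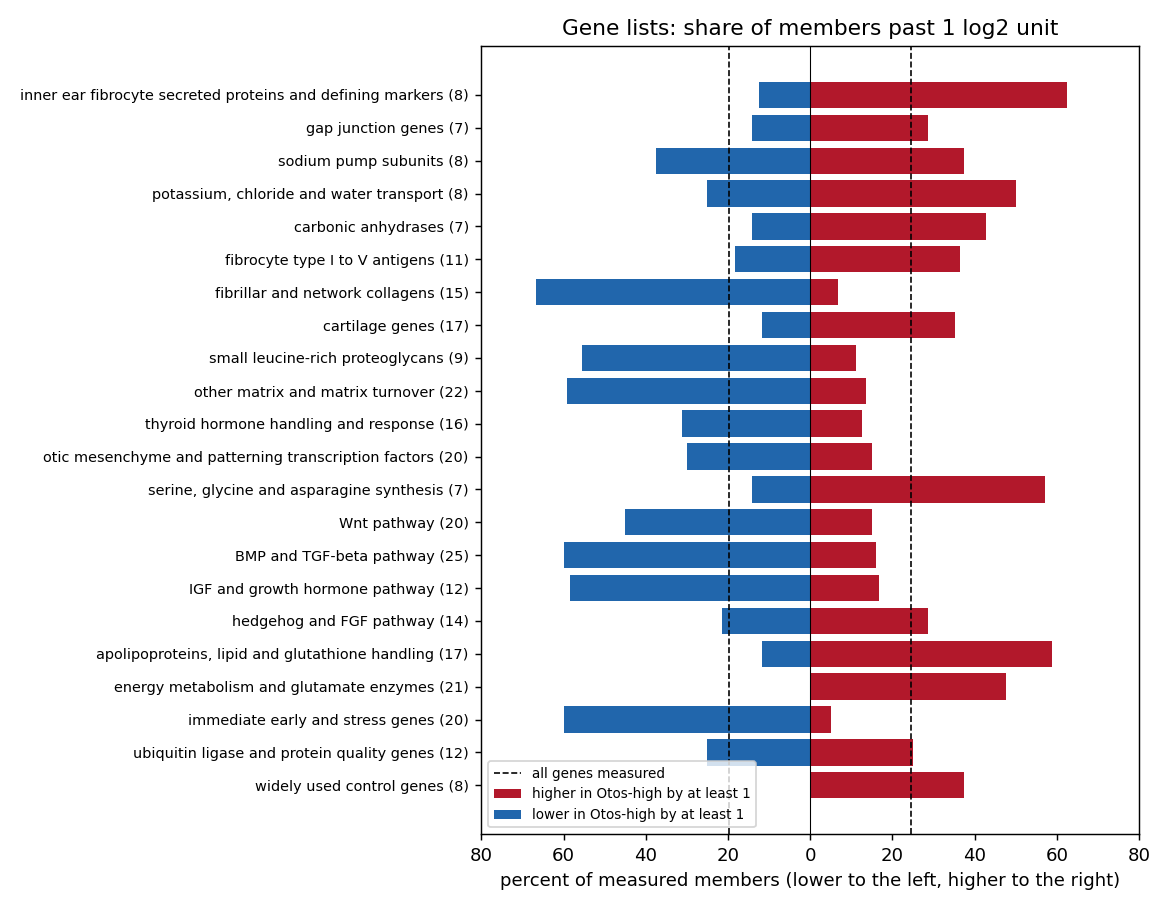
For each gene list (number of compared members in brackets), the percent of members at least 1 log2 unit higher (red, right) or lower (blue, left) in Otos-high cells. Dashed lines mark all compared genes, 24.6% and 19.8%, and the collagen, proteoglycan and matrix bars extend to the left of the line.

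Genes of ion and water transport went in both directions. Of 7 gap junction list genes, 2 were higher (Gjb2 and Gjb6) and 1 was lower, Tjp1, a junction scaffold gene, at -1.96. Of 8 sodium pump genes, 3 were higher and 3 lower, with a median of -0.32. Atp1b2, a beta subunit, had 33.5, 86.2 and 318 CPM in Otos-low cells against 0.140, 1.63 and 112 CPM, a difference of -3.65, while Atp1b3, another beta subunit, had 191, 536 and 883 CPM against 703, 1282 and 2711 CPM, a difference of 1.45. Fxyd6 had a difference of -2.55 and Fxyd5 of 2.23. Of 8 potassium, chloride and water transport genes, 4 were higher and 2 lower, with a median of 0.78. Kcnk1, a potassium leak channel gene, had 0, 393 and 578 CPM against 0.170, 0.457 and 460.3 CPM, a difference of 4.58. Aqp1, the water channel gene of type III fibrocytes, had 0, 62.5 and 321 CPM against 0.457, 385 and 2916 CPM, a difference of -2.97 that became -3.98 against cells 13 to 19 and 0.60 against cells 30 and 33.

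Of 7 carbonic anhydrase genes, 3 were higher and 1 lower, with a median of 0.88, which is the value of Car3 itself, a gene used in the rule. Car14, a membrane-bound form, had 147, 2008 and 3284 CPM against 3.89, 1053 and 2575 CPM, a difference of 1.45. Of 11 fibrocyte type I to V antigens, 4 were higher and 2 lower, with a median of 0.23. Among its members, S100b, S100a1 and Gjb2 were higher, Aqp1 and Ctgf (-1.96) lower, and Cald1 differed by -0.34.

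Energy metabolism and glutamate genes had 10 of 21 members higher and 0 lower, with a median of 0.77. Slc1a3, a glutamate transporter gene, had 0, 261 and 937 CPM against 0.134, 0.457 and 571 CPM, a difference of 3.50, and Ckb, a creatine kinase gene, had a difference of 2.93, which was 4.06 against cells 13 to 19 and -1.02 against cells 30 and 33. Gapdh belongs to this list. Ldha and Ldhb, the lactate dehydrogenase genes, had differences of 0.77 and 0.72. Apolipoprotein, lipid and glutathione genes had 10 of 17 members higher and 2 lower, with a median of 1.48. Clu, which encodes clusterin, had 234, 4135 and 16046.5 CPM against 5.31, 472 and 1672 CPM, a difference of 3.55. Clu also reached 10 CPM in 10 of 12 cells with low Car3, with a median of 1325 CPM and a highest value of 28705 CPM. Mgst1, a glutathione transferase gene, had a difference of 4.32 and Cat, the catalase gene, of 3.07. Of 7 serine, glycine and asparagine synthesis genes, 4 were higher and 1 lower, with Psat1 at 4.47 and Phgdh at 2.33, enzymes of serine synthesis. Psat1 had 0, 375 and 651 CPM against 0, 0.512 and 320 CPM. Against cells 13 to 19 the differences were 5.81 for Psat1 and 3.16 for Phgdh, and against cells 30 and 33 they were -0.22 and -0.58.

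Growth factor pathways had more members lower in Otos-high cells. In the BMP and TGF-beta list 4 of 25 members were higher and 15 lower, with a median of -1.28. Among ligands, Gdf10, Tgfb3 and Bmp4 had differences of -4.20, -3.63 and -3.46, and Gdf10 was at or below 1.16 CPM in all Otos-high cells. None of the 3 passed the size rule, and each reached 10 CPM in 5 of 9 Otos-low cells. Gdf10 differed by -3.09 against cells 13 to 19 and by -8.11 against cells 30 and 33. Other ligand genes went the other way, Tgfb2 at 2.37 and Bmp7 at 1.55, and Bmp5 differed by 0.01. Tgfb2 and Bmp7 did not pass the size rule either, and reached 10 CPM in 5 and 2 of 9 Otos-high cells. Among target genes, Id1 had a difference of 2.63 and Id2 of -2.10. Of 12 IGF and growth hormone genes, 2 were higher and 7 lower, with a median of -1.93. The ligand gene Igf1 had a difference of -3.52 and the binding protein genes Igfbp5, Igfbp7 and Igfbp6 of -4.80, -3.89 and -3.30, whereas Igfbp2 differed by -0.17. Igf1 and Igfbp7 did not pass the size rule.

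Of 20 Wnt pathway genes, 3 were higher and 9 lower, with a median of -0.68. The receptor genes went both ways. Fzd9 had 386, 902 and 1637 CPM in Otos-high cells against 0.647, 234 and 807.5 CPM, a difference of 4.37, while Fzd7 and Fzd8 had differences of -3.56 and -2.96. Fzd7 did not pass the size rule. Nkd1, an intracellular Wnt antagonist gene, had a difference of -4.84. Of 14 hedgehog and FGF genes, Hhatl included, 4 were higher and 3 lower, with a median of 0.28. Of 20 otic mesenchyme transcription factors, 3 were higher and 6 lower, with a median of -0.38, and beside Foxc2 the largest were Eya1 at -3.53 and Twist1 at -2.06.

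Of 16 thyroid hormone genes, 2 were higher and 5 lower, with a median of 0.01. The hormone transporter genes differed among themselves. Slc7a8 had 21.1, 140.5 and 230.0 CPM against 0, 0.323 and 229 CPM, a difference of 4.47. Slco1c1 was at 815 to 4171 CPM and 504 to 2900 CPM, a difference of 0.55 (-0.35 against cells 30 and 33).

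Immediate early and stress genes, which dissociation is known to induce, had 1 of 20 members higher and 12 lower in Otos-high cells, with a median of -1.45. Their summed level was 2051 to 7975 CPM in Otos-high and 982 to 33874 CPM in Otos-low cells. Jun had 1.82, 2.72 and 77.4 CPM against 1.76, 76.5 and 7437 CPM, a difference of -3.80, and Nr4a1 had a difference of -3.44, which was -4.49 against cells 13 to 19 and 0.21 against cells 30 and 33. Hspa1b and Hspa1a, near-identical copies whose split of reads is uncertain, had differences of -3.31 and -3.09. Without the 7 cells at 1000 CPM or more of Jun, Fos and Egr1 together, 7 Otos-high and 4 Otos-low cells remained, and 421 and 670 genes passed the size rule in place of 361 and 241. The part of these genes in the other differences was not tested. Of 12 ubiquitin ligase and protein quality genes, 3 were higher and 3 lower, with Fbxo2, a ubiquitin ligase subunit gene, at 324, 3274 and 6984 CPM against 36.3, 500.6 and 2568 CPM, a difference of 2.39.

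Markers of other cell types were summed per cell. The 7 macrophage genes together stayed at 2.39 to 5.40 CPM in Otos-high and 1.54 to 5.72 CPM in Otos-low cells. The 6 hair cell genes were at 0 in all 18 cells. The 9 osteoblast genes summed to 38.6 to 4715 CPM and 32.5 to 6120 CPM, the highest sums coming mostly from Dmp1, a gene of mature bone cells, at 500 CPM or more in 1 Otos-high and 5 Otos-low cells. General fibroblast genes summed to 368 to 13818 CPM and 1245 to 25101 CPM, with Dcn above 10000 CPM in cells 26, 14 and 33. Chondrocyte genes summed to 3128 to 20830 CPM and 4115 to 19211 CPM. Glial genes summed to 403 to 19368 CPM and 13.1 to 6488 CPM, with S100b giving most of the Otos-high maximum and Mbp, a myelin gene, at 5685 CPM in cell 33. Of these lists 0 of 4 macrophage, 0 of 4 fibroblast and 0 of 5 chondrocyte members that were compared differed by 1 or more in either direction, against 1 of 7 osteoblast members (lower) and 2 of 4 glial members (higher). Both compared members of the strial marginal and intermediate cell list were higher (2 of 2, median 3.08), the pigment cell genes Dct at 3.37 and Mitf at 2.79. Dct was at 1904 CPM in cell 24, at 78.2, 84.6 and 86.1 CPM in cells 23, 28 and 29 and at most 2.11 CPM in the other 14, so it reached 10 CPM in 4 of 9 Otos-high and 0 of 9 Otos-low cells. Mitf reached 10 CPM in 5 Otos-high cells and 1 Otos-low cell. Both compared members of the supporting and interdental cell list were higher as well (2 of 2, median 2.31), Slc1a3 at 3.50 and Cdh1 at 1.12. Without the 6 cells at 500 CPM or more of Dmp1, 8 Otos-high and 4 Otos-low cells remained, and 622 and 673 genes passed the size rule. The part of these markers in the other differences was not tested.

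The Otos-high cells also differed among themselves. Cells 25 and 31 had the lowest Gjb6 (203 and 399.8 CPM), S100b (96.3 and 452 CPM) and Cd38 of the class, and the highest Coch, at 68394 and 57313 CPM against 10138 to 18282 CPM in the other 7. For Gjb2 they were at 246 and 142 CPM, with the other 7 at 824 CPM or more. Cell 31 also had the lowest Otos, 762 CPM of Dkk3 and 911 CPM of Inmt, genes of the Otos-low side. Cell 26 had the lowest Car3 (4779 CPM), Otor (1328 CPM) and Ucma (29.6 CPM) of the class, with 13653 CPM of Dcn, 4677 CPM of Dmp1 and 325 CPM of Cdh11. The highest Coch of the Otos-low cells, 97304 CPM, was in cell 18, together with 2518 CPM of Ucma and with Lox, Fst, Ntn4 and Vstm4 at or below 2.05 CPM.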

How the data were processed

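Each of the 46 libraries is 1 cell (SMART-Seq v4 and ThruPLEX kits, per the labels' protocols). The submitters' processing notes name bcl2fastq 2, STAR 2.7.3a, GRCm38 and mm10. For the counting program, annotation and strand setting, none is given in the sources used here, so overlapping or antisense genes cannot be told apart. The authors deposited CPM (reads per 1000000 reads), named so per the file headers, for 29871 genes. All 100.0% of values above 0 were whole reads within 0.01 read. No count test was run on them, because with no animal named the cells are 1 sample and reads without molecular identifiers are not independent molecules. Differences are Otos-high minus Otos-low means of log2(CPM + 1) computed here, which understate changes of low genes. The calculation was tested on simulated data with planted changes in well-expressed genes. Those data had no genes switched on in some cells and off in others of 1 class, so they give no error rate here. Named genes are the 14 largest differences per direction under the size rule (symbols of the Gm, Rik, LOC and date kinds, mitochondrial and ribosomal protein genes not ranked), the markers, Dio2 and up to 4 members per list, and a few further members are given as contrasts. All 479 listed symbols matched. Values of a few genes are not reported here, but every count includes them. Cells, members and lists were chosen with earlier results of these data known, and cells 30 and 33 were set apart after seeing the data. Python 3.11.15, numpy 2.4.6, pandas 2.3.3 and matplotlib 3.10.9 were used.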

Additional observations from a re-analysis of the deposited data

Results flagged for a closer look

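Values were listed within a class of 9 cells by Dixon's criterion on log2(CPM + 1). It asks that the gap to the next cell be large beside the range of the class. For normally distributed values chance meets it in about 1 in 20 groups. That rate does not hold here, because many of these genes were high in some cells of a class and near the floor in others. The named genes were also chosen for large differences in these same cells. The listing is therefore a description and not a test. Cells 26, 31, 33 and 18 had more than 1 listed value. Cell 26 was low in Car3 (4779 CPM), Otor (1328 CPM) and Ucma (29.6 CPM) and high in Ntn4 (289 CPM), Cdh11 (325 CPM) and Mfap4 (93.5 CPM) for an Otos-high cell. Cell 31 was low in Aif1l (1.10 CPM) and high in Dkk3 (762 CPM). Single Otos-high cells were high in Lox (cell 24, 42.9 CPM), Vstm4 (cell 29, 85.8 CPM), Dner (cell 32, 319 CPM), Uaca (cell 27, 15.1 CPM) and Phactr1 (cell 25, 122 CPM).

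Among Otos-low cells, cell 33 was high in Lrrc8d (267 CPM) and low in Cdh11 (1.16 CPM) and Otor (17.1 CPM), and cell 30 was high in Aif1l (119 CPM). Cell 18 was low in Lox (2.05 CPM) and Vstm4 (0.341 CPM), and cell 14 was low in Dkk3 (0.480 CPM).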

How the results depend on the processing

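For the 31 single genes followed under 32 alternatives each (the 27 named genes besides Otos, with Car3, Coch, Otor and Dio2), 972 of 992 values stayed within 1 SD over cells and 20 moved further. Leaving out 1 of 9 cells cannot move a difference by that much, so for those 18 settings the outcome was fixed by construction. The SDs were also wide. Fst, with an SD of 4.72 in Otos-low cells, went from -6.34 to -8.14 against cells 13 to 19 and still counted as within 1 SD. The 972 is therefore no measure of stability. Of the 31 genes, 29 kept their sign under all 32, while Coch (0.07, from -0.30 to 0.58) changed sign under 9 and Dio2 (0.13, from -0.93 to 0.68) under 14. The 27 named genes were chosen for large differences in these same cells, so their kept sign is no separate support. A kept sign also includes differences near 0: against cells 30 and 33 alone Fst was at -0.07, Gjb6 at 0.33 and Gjb2 at 0.57. The other members of the gene lists were followed against cells 13 to 19 and against cells 30 and 33 alone, and several, among them Aqp1, Fbln5, Nr4a1, Ckb, Psat1 and Phgdh, had the opposite sign against cells 30 and 33, with the values given above. Genes higher in Otos-high cells under the size rule (361) became 575 with a pseudocount of 0.1, 105 with 10, 843 with no filter on low values and 622 without the cells at 500 CPM or more of Dmp1. Genes higher in Otos-low cells (241) became 91 with a pseudocount of 10, 619 with no filter, 377 with Car3 at 5000 CPM or more, 147 with Car3 at 100 CPM or more, 1141 with cells 23 to 33 only (2 Otos-low cells), 673 without the Dmp1 cells and 670 without the cells high in Jun, Fos and Egr1. Genes above in every Otos-high cell (1) became 2 with Otos-high at 5000 CPM or more, 7 with Car3 at 5000 CPM or more, 9 with cells 13 to 19 only, 34 with cells 23 to 33 only, 9 without the cells at 10000 CPM or more of Dcn, 24 without the Dmp1 cells and 24 without the Jun, Fos and Egr1 cells. In the other direction the count (0) became 1, 3, 2, 200, 4, 35 and 42 in the same order. Fewer cells make separation easier by construction, and the cause of the other changes was not tested. Leaving out each cell in turn gave 337 to 509, 228 to 378, 1 to 5 and 0 to 3 for the 4 counts, and only leaving out cell 18 moved a size rule count by over 1.5 times, to 378 genes higher in Otos-low cells. The settings that leave out cells by Dcn, Dmp1 or Jun, Fos and Egr1, by cell number, and cells 30 and 33 were chosen after seeing the data. Otos-low below 10 CPM was not run, because no cell was that low. No paired analysis was possible because all cells belong to 1 labelled group and carry no shared numbers. Thinning every cell to 3522422 reads gave 364 and 248 genes, so depth did not move the counts by 1.5 times.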
